A study of Mus musculus with 3 samples.

Results

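The podocyte covers the outer face of the glomerular capillary with foot processes, and its slit diaphragm is the junction that spans the gap between neighbouring foot processes. The 9 genes described here build that junction or the foot process behind it, and they were taken as a fixed list of names, not by any measured value: Nphs1 and Kirrel2, adhesion molecules of the junction; Cd2ap and Magi2, the adaptor and scaffold on its inner side; Podxl and Ptpro, membrane proteins of the apical surface; Synpo and Actn4, which organise actin filaments; and Trpc6, a calcium channel. All 9 were present in each of the 3 count tables, which together held 22535 genes. Mutations of several of them cause inherited proteinuria, and loss of foot process structure is the common lesion of podocyte injury. Where a member is made by podocytes alone, its UMIs in other cells also measure podocyte RNA carried over into them, which holds for some of the 9 genes and not for others, as described further on.

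The libraries came from the kidney cortex of WT1CreERT2; Rosa26-tdTfl/+ mice, in which tamoxifen-activated Cre, knocked into the Wt1 locus, switches on the red reporter tdT in cells that express Wt1 and in their descendants, so every library carried the same Cre allele and reporter. Sham was a mixture of renal cells enriched for tdT+ cells after sham surgery. IRI24h-TDN was a mixture of tdT+ and tdT- cells taken 24 h after both kidneys had undergone severe ischemia and reperfusion (IRI). At the same time point the tdT+ cells alone gave IRI24h-TD, which the labels describe as podocytes and WT1+ parietal epithelial cells (PECs) for the most part. Each was 1 library of pooled kidneys, so no difference between libraries can be set against a replicate spread and no test was made, and injury, library and cell preparation cannot be told apart. Levels are given as CPM, the unique molecular identifiers (UMIs, 1 per captured RNA molecule) of a gene scaled to the same total of UMIs in every group, with exact 95% Poisson intervals, and shares of cells with exact binomial ones, and all these intervals cover counting error only.

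The Sham, IRI24h-TDN and IRI24h-TD tables held 10062, 10062 and 9884 barcodes, with 69980443, 92355554 and 93470709 UMIs. Barcodes with at least 200 genes and at most 50% mitochondrial UMIs numbered 8047, 9024 and 9689, or 26760 of 30008, with median depths of 7746, 9151 and 9529 UMIs. Between 82 and 96 kept cells of each pair of libraries carried the same barcode. Clusters found without the 9 genes and named from 16 other podocyte markers gave 17620 podocyte-like cells, 65.8% of those kept. In Sham they numbered 4276 (53.1%), with 5081 (56.3%) and 8263 (85.3%) in the mixed and the tdT+ library after injury, shares that the enrichment and the sort can set. All 16 markers were found in podocyte-like cells of every library, with summed levels between 28797 and 29869 CPM, while the 10 endothelial markers summed to between 23.5 and 25.1 CPM. The 16 markers of proximal tubular epithelial cells (PTECs) summed to 415 CPM in podocyte-like cells of Sham and to 18.0 and 13.9 CPM in those of IRI24h-TDN and IRI24h-TD. The 7 markers of injured tubule summed to 25.1, 239 and 106 CPM, the 12 monocytic markers to 51.6, 36.8 and 14.1 CPM and the 7 dissociation stress genes to 18689, 20544 and 20654 CPM, and the part of any of these in the differences below was not tested.

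In podocyte-like cells Kirrel2 was higher in both injured libraries than in Sham, Nphs1 was lower in both, and Podxl was nearly level across the 3. Podocyte-like cells held more of the 9 genes per cell than every other named class did. After each cell was thinned to 2400 UMIs, the median cell had UMIs of 6, 6 and 7 members in the same order of libraries, and at least 5 members were found in 99.4, 99.3 and 99.7% of cells. In the other named classes the median was between 1 and 3 members, and at least 5 were found in 1.82 to 25.8% of cells. Cells of the clusters that stayed unnamed resembled podocyte-like cells in this, with a median of 6 members in each library and at least 5 in 89.5, 91.1 and 98.8% of cells. Only the unnamed cells deep enough for thinning entered here, 237 of 344, 293 of 296 and 321 of 827 in the same order. A difference was counted where it reached 1.5-fold with at least 50 UMIs over both groups.

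**Figure D1:**
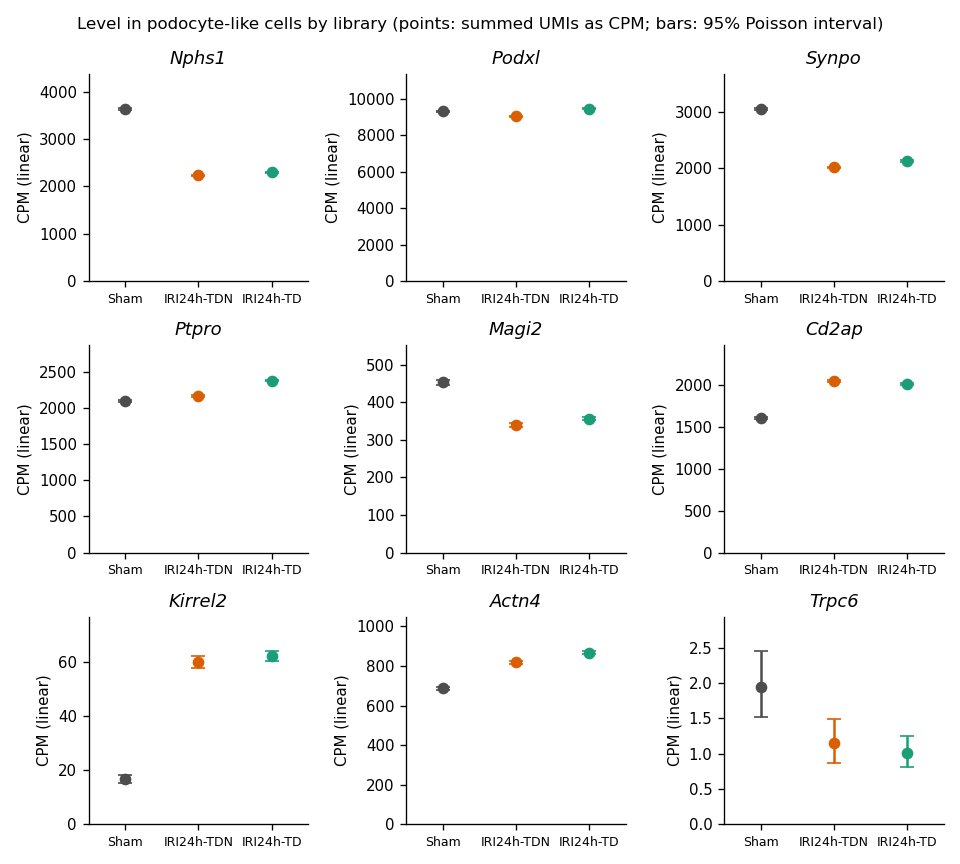
Level of each gene in podocyte-like cells (vertical axes, CPM on a linear scale from 0) in Sham, IRI24h-TDN and IRI24h-TD, with points for the summed UMIs and bars for the 95% Poisson interval. Kirrel2 stands at 16.6 CPM in Sham and at 59.8 and 62.2 CPM in the injured libraries, while Nphs1 falls from 3637 CPM to 2238 and 2297 CPM.

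Nphs1 encodes nephrin, the adhesion molecule whose outer domains meet in the slit between foot processes. Its level in podocyte-like cells was 3637 CPM in Sham, 2238 CPM in IRI24h-TDN and 2297 CPM in IRI24h-TD. Sham was thus the high library and both injured libraries lay close together, with a log2 fold change against Sham of -0.70 (-0.71 to -0.69) in IRI24h-TDN and -0.66 (-0.67 to -0.65) in IRI24h-TD, which is 1.63-fold and 1.58-fold lower. The fall was spread over the cells: the median podocyte-like cell had 29 UMIs (15 to 50 from the 10th to the 90th percentile) in Sham, where IRI24h-TDN had 20 (11 to 34) and IRI24h-TD 22 (11 to 37). At least 1 UMI of Nphs1 was found in 99.6, 99.7 and 99.8% of these cells, and in 99.9, 98.9 and 99.3% after thinning, so the difference lay in the amount per cell and not in the share of cells with the RNA. The gene lies on chromosome 7, bases 30458315 to 30487223 of the plus strand in mm10.

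Kirrel2, which encodes Neph3 (filtrin), a nephrin relative of the same junction, moved the other way. It had 607 UMIs in podocyte-like cells of Sham against 2920 and 5145 in those of the injured libraries, or 16.6 CPM (15.3 to 18.0), 59.8 CPM (57.7 to 62.1) and 62.2 CPM (60.5 to 63.9). The intervals of both injured libraries lay far above that of Sham, with log2 fold changes of 1.85 (1.72 to 1.98) and 1.90 (1.78 to 2.03), or 3.60-fold and 3.74-fold higher. Kirrel2 RNA was found in more cells: 10.5% of podocyte-like cells of Sham had a UMI, as did 36.8 and 39.4% of those of IRI24h-TDN and IRI24h-TD, and 3.75, 12.4 and 13.5% after thinning, which left out 38, 6 and 112 shallower cells. In monocytic-like cells, which should lack the gene, the share was 0.965% in Sham and 1.09% in IRI24h-TDN, at median depths of 4502 and 5732 UMIs against 8308 and 9358 in podocyte-like cells. Of all genes tested, 98.3% had a lower log2 fold change than Kirrel2 in each of the comparisons with Sham.

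Kirrel2 lies on chromosome 7, bases 30447534 to 30457690 of the minus strand, head to head with Nphs1 on the plus strand, with 625 bases between their annotated starts. The pair is therefore close together in the genome while their RNA levels moved apart. The stretch of the RefSeq promoter window of Kirrel2 that lies before its first annotated exon is printed because it falls in the interval between these genes (GRCm38.p6, chr7:30457691-30457765, minus strand, 5′ to 3′). Capitals mark the match, on either strand, to the letters GNGTGGGNG, of the type bound by the zinc fingers of WT1 and EGR proteins. No such stretch is shown for Nphs1, whose RefSeq window overlaps its own annotated exons.
Kirrel2: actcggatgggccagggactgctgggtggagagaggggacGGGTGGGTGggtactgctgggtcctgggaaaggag

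This motif was found in 12.7% of the 32851 mouse promoter windows of 250 bases, and a match describes the letters only. RefSeq windows were given for 7 of the 9 genes, 8 windows in all with a pair for Magi2, while Podxl and Synpo had no entry. The motif matched in the windows of Nphs1, Magi2, Cd2ap and Kirrel2 1 time each and in that of Actn4 2 times, and there was no match in those of Ptpro and Trpc6. Of the members past the 1.5-fold limit that had a window, Kirrel2 (higher) and Nphs1 (lower) had a match and Trpc6 (lower) had none. The window of Nphs1 began within an annotated exon, and that of Cd2ap held only 9 bases before one.

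Cd2ap encodes an adaptor that ties nephrin to endocytosis and actin. Its level was 1600 CPM in Sham, 2046 CPM in IRI24h-TDN and 2009 CPM in IRI24h-TD. Both injured libraries were above Sham by a log2 fold change of 0.36 and 0.33, under the 1.5-fold limit, and the median podocyte-like cell had 13 UMIs in Sham and 19 in each injured library. Magi2, a scaffold of the slit diaphragm complex and of cell junctions, had 453, 340 and 356 CPM, lower after injury by a log2 fold change of -0.41 and -0.35, again within the limit, with a median of 3 UMIs per cell in every library. Cd2ap lies on chromosome 17, bases 42792951 to 42876665, minus strand, and Magi2 on chromosome 5, bases 19227036 to 20704792, plus strand.

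Podxl and Ptpro, the apical membrane proteins, were the members nearest to their Sham level. Podxl encodes podocalyxin, a sialylated protein whose negative charge keeps foot processes apart, and it had 9305 CPM in Sham, 9051 CPM in IRI24h-TDN and 9464 CPM in IRI24h-TD. The log2 fold changes against Sham were -0.04 and 0.02, and the median over all genes tested was -0.04 and -0.02. Ptpro, a receptor tyrosine phosphatase also known as GLEPP1, had 2093, 2174 and 2383 CPM, with log2 fold changes of 0.05 and 0.19. Podxl lies on chromosome 6, bases 31519488 to 31563981, minus strand, and Ptpro on the same chromosome, bases 137252319 to 137463233, plus strand.

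The upstream windows of Ptpro and Actn4 are printed side by side as the CpG-poor and the CpG-rich kind of window among members whose RNA stayed within 1.5-fold (GRCm38.p6, 5′ to 3′, bases before any annotated exon, with chr6:137252049-137252298 on the plus strand for Ptpro and chr7:28962341-28962582 on the minus strand for Actn4). Capitals mark the matches to GNGTGGGNG on either strand, of which Ptpro had none.
Ptpro: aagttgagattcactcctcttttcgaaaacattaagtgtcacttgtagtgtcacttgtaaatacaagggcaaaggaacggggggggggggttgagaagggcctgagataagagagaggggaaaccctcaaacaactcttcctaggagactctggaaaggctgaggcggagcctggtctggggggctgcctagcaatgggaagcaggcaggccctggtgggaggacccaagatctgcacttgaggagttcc
Actn4: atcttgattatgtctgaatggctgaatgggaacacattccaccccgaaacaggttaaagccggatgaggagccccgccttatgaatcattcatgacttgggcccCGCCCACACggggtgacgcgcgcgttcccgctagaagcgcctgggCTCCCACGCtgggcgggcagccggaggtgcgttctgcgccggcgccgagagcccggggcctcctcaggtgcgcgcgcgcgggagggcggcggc

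The Ptpro window held 3 CpG dinucleotides in its 250 upstream bases and that of Actn4 held 29, where the median over all windows was 6 and the 10th to 90th percentile ran from 1 to 25. Cd2ap (31 CpG) and the first window of Magi2 (29) resembled Actn4 in this, while Nphs1 (5), Kirrel2 (4) and the second window of Magi2 (3) resembled Ptpro, and Trpc6 (12) lay between.

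Synpo encodes synaptopodin, an actin-associated protein that marks the mature foot process. Its level fell from 3051 CPM in Sham to 2017 CPM in IRI24h-TDN and 2130.0 CPM in IRI24h-TD, a log2 fold change of -0.60 and -0.52, or 1.51-fold and 1.43-fold lower. The first of these passed the 1.5-fold limit and the second did not, and the first sat so near it that 5 of 16 other settings of the processing put it within the limit (-0.63 to -0.56). Actn4, which encodes the actin crosslinker alpha-actinin-4, was higher after injury, with 687, 818 and 868 CPM and log2 fold changes of 0.25 and 0.34. The median podocyte-like cell had 25, 18 and 20 UMIs of Synpo and 5, 7 and 8 of Actn4. Synpo lies on chromosome 18, bases 60593973 to 60660142, minus strand, and Actn4 on chromosome 7, bases 28893248 to 28962340, minus strand. Antisense genes in the tables that overlap a member had few UMIs in podocyte-like cells, with 12, 9 and 29 for Capn12 at Actn4, 6, 2 and 1 for Nphs1os at Nphs1 and 1, 3 and 1 for Gm32014 at Trpc6, and whether counting used strand is not given in the sources used here.

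Trpc6, the channel, was close to the limit of detection in podocyte-like cells, with 71, 56 and 84 UMIs in Sham, IRI24h-TDN and IRI24h-TD. Levels were 1.94 CPM (1.52 to 2.45), 1.15 CPM (0.867 to 1.49) and 1.02 CPM (0.810 to 1.26). The interval of Sham did not overlap those of the injured libraries, but these intervals treat UMIs as independent of each other. A single Sham cell held 7 of the 71 UMIs, where the most held by any cell was 2 for IRI24h-TDN and 3 for IRI24h-TD. Whether the gap between the intervals holds without that cell was not tested. The log2 fold changes were -0.76 (-1.29 to -0.23) and -0.94 (-1.41 to -0.46), and 1.17, 0.964 and 0.896% of podocyte-like cells had a UMI. In monocytic-like cells, which should lack the gene, 1 of 916 cells in IRI24h-TDN and 0 of 311 cells in Sham had one, the latter allowing, by a floor of 3 counts and not the binomial interval, a UMI in up to 0.965% of cells. Another class held far more Trpc6, as described below, and its markers were also present in podocyte-like cells: the 9 mesangial and pericyte markers summed to 42.4, 23.9 and 20.1 CPM and the 6 of smooth muscle and renin cells to 15.4, 15.2 and 5.63 CPM. The level of Trpc6 in podocyte-like cells was 2.76% of its mural-like level in Sham and 2.18% in IRI24h-TDN, against 0.234 and 0.224% for the first of these lists summed and 0.0919 and 0.0773% for the second. Single genes of the first list reached up to 13.1 and 36.5%, so Trpc6 lay within the range of that list. It was above the median gene of that list, which stood at 0.173 and 0.0605%. Genes of the second list reached up to 0.438 and 0.921%, below Trpc6. The gene lies on chromosome 9, bases 8544142 to 8680741, plus strand.

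Of the 9 members, 1 was past the limit upward (Kirrel2) and 3 downward (Nphs1, Synpo, Trpc6) in IRI24h-TDN against Sham, where 9.8% of the 11930 genes tested were higher and 14.0% lower. In IRI24h-TD against Sham, 1 was higher (Kirrel2) and 2 were lower (Nphs1, Trpc6), against 10.5% higher and 14.5% lower of 12174 genes. Both comparisons share the Sham library, so they are not independent of each other. The median log2 fold change of the members was -0.04 and 0.02, beside -0.04 and -0.02 over all genes. The members thus moved in both directions around the level of the whole table. Between the injured libraries, IRI24h-TD against IRI24h-TDN, 0 members passed in either direction, where 0.922% of 12045 genes were higher and 2.29% lower, and their log2 differences ran from -0.18 for Trpc6 (-0.68 to 0.34) to 0.13 for Ptpro.

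**Figure D2:**
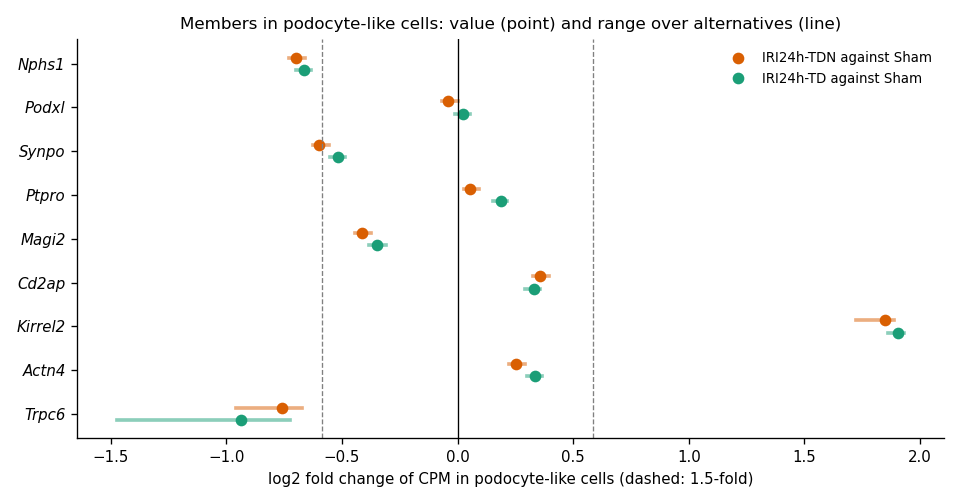
Log2 fold change of CPM in podocyte-like cells (horizontal axis) for each gene in IRI24h-TDN and IRI24h-TD against Sham, with points for the value and lines for its range over 16 alternative settings, and dashed lines at 1.5-fold. Kirrel2 lies at 1.85 and 1.90, Nphs1 at -0.70 and -0.66 and Podxl at -0.04 and 0.02, and the line of Synpo in IRI24h-TDN crosses the dashed line.

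Other genes of the same structures were listed by name, 59 in all, of which 58 were in the tables and 52 had enough UMIs. In each comparison with Sham, 13 of the 52 were higher and 1 was lower, with medians of 0.14 for IRI24h-TDN and 0.21 for IRI24h-TD. Over all genes tested, 9.8 and 10.5% were higher and 14.0 and 14.5% lower, with medians of -0.04 and -0.02. Between the injured libraries 0 of the 52 passed in either direction, where 0.922% of all genes were higher and 2.29% lower. Of the 15 slit diaphragm partners 2 were higher and 1 lower against Sham in both comparisons (medians -0.01 and 0.03). Kirrel, which encodes the nephrin partner Neph1, was higher at 304 and 252 CPM against 164 CPM in Sham, so Kirrel and Kirrel2 were higher and Nphs1 was lower in the injured libraries.

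Genes of the foot process cytoskeleton were the largest of these groups, and 8 of the 23 tested were higher and 0 lower in each comparison with Sham, with medians of 0.38 and 0.43. The shares over all genes tested were 9.8 and 10.5% higher and 14.0 and 14.5% lower. Palld, which encodes the actin bundling protein palladin, had 798 CPM in Sham, 1680 CPM in IRI24h-TDN and 1670 CPM in IRI24h-TD. The adhesion genes Vcl (vinculin) and Zyx (zyxin) were higher with log2 fold changes of 0.81 and 0.94 and of 0.89 and 1.10. Kank2 followed with 0.92 and 0.91 and Cfl1, the actin severing protein cofilin, with 0.80 and 0.78. Anln, which encodes anillin, had 2.07 and 2.05 but levels of only 0.219, 0.922 and 0.906 CPM.

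Among the 5 endocytic adaptors Dnm1, which encodes the membrane fission protein dynamin-1, was the 1 past the limit, at 1.37, 14.0 and 15.6 CPM (log2 fold changes of 3.35 and 3.51). Of the 8 apical and basal anchors 2 were higher and 0 lower, and Itgb1, the integrin beta1 subunit that binds the basement membrane, rose from 2734 CPM to 4945 and 4840 CPM. Trpc1, the channel gene tested beside Trpc6, had log2 fold changes of -0.47 and -0.54, within the limit. Beside these counts, 9.8 and 10.5% of all genes tested were higher and 14.0 and 14.5% lower.

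**Figure D3:**
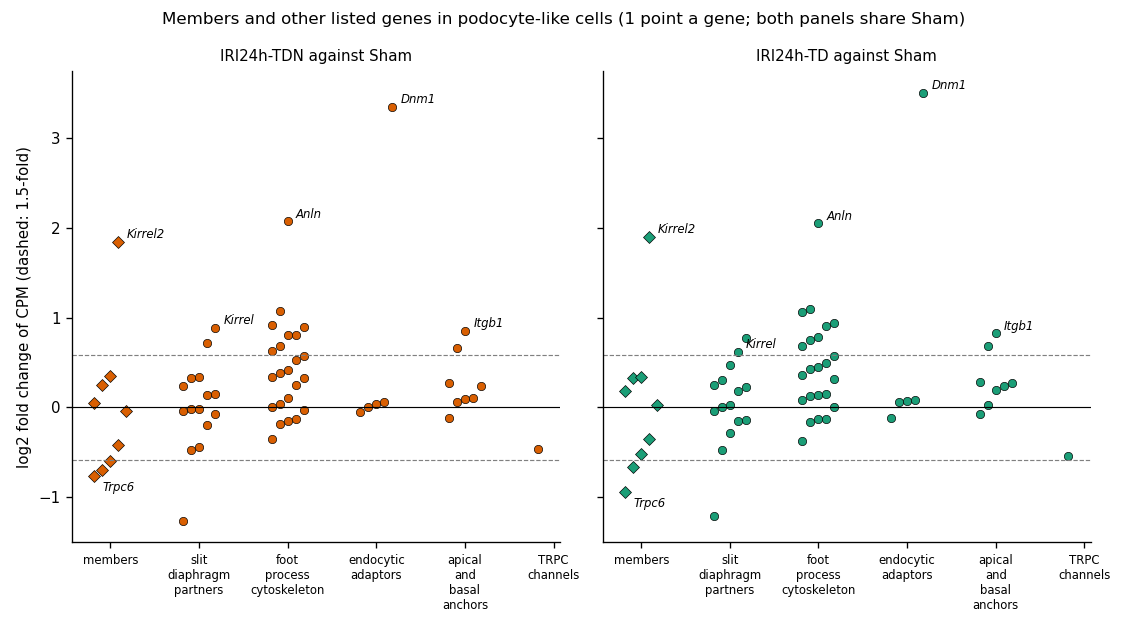
Log2 fold change of CPM in podocyte-like cells (vertical axis, dashed lines at 1.5-fold) for the 9 members and the 52 other listed genes by group, 1 point a gene, in IRI24h-TDN against Sham (left) and IRI24h-TD against Sham (right). In the cytoskeleton group 8 of 23 genes lie above the upper dashed line and 0 below the lower one in each panel, and Kirrel2 (1.85 and 1.90) lies highest among the members. Of all genes tested, 9.8% (left) and 10.5% (right) were past the upper limit and 14.0 and 14.5% past the lower one.

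Podocyte-like cells fell into 6 clusters, and 3 of these were led by stress and immediate early genes such as Hspa1a, Egr2 and Nr4a3. These 3 clusters held 22.6% of podocyte-like cells of Sham and 46.4 and 48.0% of those of the injured libraries, so their share was higher in both injured libraries. Without them the log2 fold changes against Sham were 1.83 and 1.91 for Kirrel2, -0.68 and -0.64 for Nphs1, -0.68 and -0.72 for Trpc6 and -0.57 and -0.49 for Synpo, the last within the limit in both comparisons. Across single podocyte-like cells the members were nearly unrelated, with pairwise Pearson correlations of thinned log counts between -0.05 and 0.14 within a library, which is no finding in counts this sparse.

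A cluster of 618 cells that stayed unnamed held the members as well. Its leading genes were Igfbp2, Fam180a, Aldh1a1, St8sia6 and Dkk3, the last a PEC marker, and 186, 139 and 293 of its cells came from Sham, IRI24h-TDN and IRI24h-TD. Kirrel2 was at 58.2, 84.1 and 83.2 CPM there, 3.50, 1.41 and 1.34 times its podocyte-like level of the same library. In contrast Nphs1 (2592, 1817 and 2056 CPM), Podxl (5153, 7356 and 7938 CPM), Synpo (1444, 1534 and 1543 CPM) and Magi2 (219, 225 and 248 CPM) were below their podocyte-like levels. Actn4 (861, 943 and 952 CPM) was above it. Kirrel2 in these cells of Sham was thus about as high as in podocyte-like cells after injury, at 58.2 CPM against 59.8 and 62.2 CPM.

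Outside podocyte-like cells, each member was given as a percent of its podocyte-like level in the same library and set beside the same percent for 5 other podocyte genes summed, Ddn, Tdrd5, Rhpn1 and Thsd7a among them, which serve as a yardstick of podocyte RNA carried by other cells. RNA free in the suspension and a podocyte captured together with another cell both add to it and cannot be told apart by this percent, and doublets were not removed. RNA from 1 source keeps its genes in 1 ratio, so a gene with no other source should lie at the yardstick. Of the yardstick genes, 3 are also among the markers used for naming. The yardstick stood between 3.39 and 31.1% in 11 classes of Sham (median 9.29%), between 2.95 and 13.6% in 9 classes of IRI24h-TDN (median 4.91%) and at 9.15 and 15.7% in the PEC-like and PTEC-like cells of IRI24h-TD. A member was called above it where the lower Poisson bound of its percent was at least 3 times the yardstick, and 29 of 198 pairs of member and group were, or 14.6%. With the top 6% of doublet scores left out in each library, 37 of 180 pairs were. Among pairs of a group and a gene of at least 50 CPM in podocyte-like cells, a minimum that Trpc6 and, in Sham, Kirrel2 did not reach, 78.0% were called, with a range over the 22 groups from 23.8 to 96.3%.

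**Figure D4:**
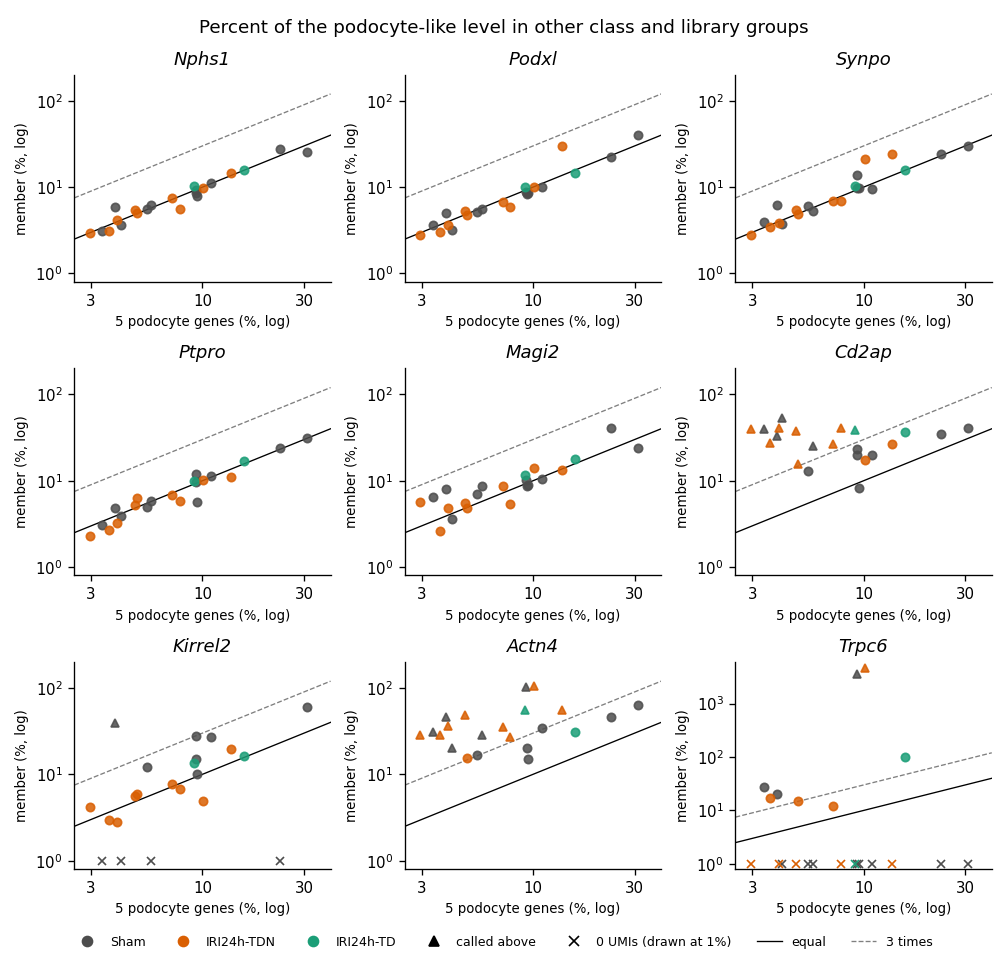
Level of each gene in the 22 groups of other classes and libraries as a percent of its podocyte-like level (vertical axes, log scale) against the same percent for the 5 yardstick genes (horizontal axes, log scale), with a solid line for equality, a dashed line at 3 times and triangles for groups called above. Nphs1, Podxl, Synpo, Ptpro and Magi2 follow the solid line with 0 of 22 groups called, while 12 groups are called for Cd2ap, 14 for Actn4, 2 for Trpc6 and 1 for Kirrel2.

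Nphs1, Podxl, Synpo, Ptpro and Magi2 were above the yardstick in 0 of 22 groups each. Their medians over the groups were 1.01, 0.94, 1.02, 1.01 and 1.16 times the yardstick, and the groups ran from 0.72 to 1.51 times for Nphs1, 0.75 to 2.21 for Podxl, 0.87 to 2.07 for Synpo, 0.60 to 1.28 for Ptpro and 0.69 to 2.04 for Magi2, whose highest group was the PEC-like cells of Sham. In monocytic-like cells of IRI24h-TDN, for instance, Nphs1 stood at 4.97% of its podocyte-like level, Podxl at 4.75%, Synpo at 4.94% and Magi2 at 4.83%, against a yardstick of 4.91%, while Ptpro stood at 6.26% (5.84 to 6.71), 1.27 times the yardstick. The clusters of that class differed. Nphs1 was 26.4 CPM in the one led by Mmp13 and C1qa (656 cells) and 326 CPM in that led by Chil3 and Fn1 (212 cells). The UMIs sat in few cells: the 5% of cells with the most Nphs1 held a median of 72.7% of its UMIs over the 22 groups (46.8 to 87.2%), compared with 10.6 to 10.9% in podocyte-like cells, and a single cell held up to 88 UMIs. For Cd2ap and Actn4 the same 5% held a median of 27.3 and 22.2%.

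Of these 5 genes, Podxl in endothelial-like cells and Synpo in mural-like cells lay farthest above the line without being called. Podxl, which endothelial cells are known to make, was at 3705 CPM in endothelial-like cells of Sham and 2729 CPM in IRI24h-TDN, 1.28 and 2.21 times the yardstick, and 90.5 and 98.1% of these cells had a UMI (96.9 and 94.1% after thinning, for which 97 and 102 cells were deep enough). Nphs1 was found in 26.4 and 19.4% of the same cells (40.2 and 14.7% after thinning). The yardstick itself was high in them, at 31.1 and 13.6%. Synpo in mural-like cells was 1.49 times the yardstick in Sham and 2.07 times in IRI24h-TDN. In the mural-like cluster led by the smooth muscle genes Cnn1, Myh11 and Acta2, which was chosen after its values were seen, Synpo reached 7.35 and 16.8% of its podocyte-like level where Nphs1 reached 1.64 and 2.97%, and 61.1 and 74.8% of cells had a UMI of Synpo against 24.8 and 13.6% with Nphs1.

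Cd2ap and Actn4 were the members most often above the yardstick, though in a smaller share of the groups than the 78.0% of all pairs of gene and group. Cd2ap was above the yardstick in 12 of 22 groups (median 3.45 times) and reached 53.8 and 40.5% of its podocyte-like level in intercalated-like cells, at 861 and 829 CPM in Sham and IRI24h-TDN. In PTEC-like cells it was 210 CPM in Sham, 817 CPM in IRI24h-TDN and 733 CPM in IRI24h-TD, so the injured libraries were higher by a log2 fold change of 1.96 (1.87 to 2.05) and 1.81 (1.68 to 1.93), while Nphs1 in the same cells was 204, 66.5 and 362 CPM. Cd2ap was called above the yardstick there in IRI24h-TDN only (13.5 times), against 2.39 times in Sham and 2.33 times in IRI24h-TD. The yardstick was 5.48, 2.95 and 15.7% in the 3 libraries, and the part of carried-over podocyte RNA in these differences was not tested. PEC-like cells had 533, 762 and 782 CPM of Cd2ap. The PTEC-like clusters were mixed differently by library, since the cluster led by the injury genes Havcr1 and Krt20 gave 24.5, 48.4 and 70.2% of the class in the same order of libraries. Within that cluster Cd2ap was 365, 984 and 897 CPM. Within the cluster led by the transporter genes Slco1a1 and Slc7a13 it was 153, 678 and 595 CPM, so Sham was lowest in each of these clusters. The remaining PTEC-like cluster, led by Snhg11, Cyp2d26 and Spp2, could not be compared. It had 292 cells in Sham (28.4% of the class), 13 in IRI24h-TDN and 0 in IRI24h-TD.

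Actn4 was above the yardstick in 14 of 22 groups (median 4.88 times). Mural-like cells, which gather mesangial, pericyte, smooth muscle and renin cells, had 700 CPM in Sham and 869 CPM in IRI24h-TDN, as much as podocyte-like cells of the same library (102 and 106%). PEC-like cells had 316, 401 and 482 CPM and PTEC-like cells 116, 236 and 270 CPM, in each case with Sham lowest. In PTEC-like cells Actn4 was called in IRI24h-TDN only (9.76 times the yardstick), against 3.08 times in Sham and 1.99 times in IRI24h-TD. Endothelial-like cells had 441 and 451 CPM, close to each other, but their yardsticks differed, at 31.1% in Sham and 13.6% in IRI24h-TDN. Actn4 there was 2.06 times the yardstick in Sham, not called above it, and 4.04 times in IRI24h-TDN, called.

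Trpc6 had its highest level not in podocyte-like but in mural-like cells. It was 70.3 CPM there in Sham (123 UMIs in 295 cells) and 52.7 CPM in IRI24h-TDN (142 UMIs in 463 cells), and 25.1 and 22.0% of the cells had a UMI. These levels were 3617% (3006 to 4316) and 4596% (3871 to 5417) of the podocyte-like ones. The intervals carry the counting error of the mural-like UMIs only. They treat the podocyte-like level as exact, although it rests on just 71 and 56 UMIs. The signal was present in each of the 3 mural-like clusters: 81.2 and 42.4 CPM in the smooth muscle cluster, 75.7 and 80.4 CPM in that led by Casq2, Notch3 and Rgs5, and 45.0 and 31.1 CPM in that led by the renin gene Ren1. In endothelial-like cells 0 UMIs of Trpc6 were found among 201 cells of Sham and 103 of IRI24h-TDN, which by a floor of 3 counts allows a UMI in up to 1.49 and 2.91% of cells and sets no limit on the share of cells that express the gene. The only groups in which Trpc6 was called above the yardstick were these mural-like ones.

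**Figure D5:**
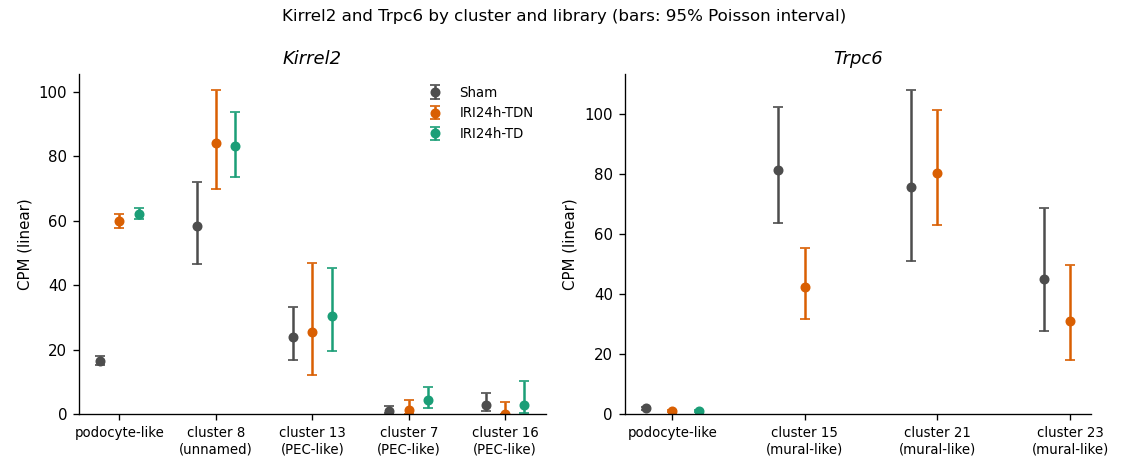
Level (vertical axes, CPM on a linear scale from 0) of Kirrel2 in podocyte-like cells, the unnamed cluster 8 and the PEC-like clusters 13, 7 and 16 (left), and of Trpc6 in podocyte-like cells and the mural-like clusters 15, 21 and 23 (right), by library, with bars for the 95% Poisson interval. Kirrel2 in cluster 13 stands at 24.1, 25.5 and 30.5 CPM with overlapping bars, and Trpc6 is between 31.1 and 81.2 CPM in the mural-like clusters and under 2 CPM in podocyte-like cells.

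Kirrel2 outside podocyte-like cells was called above the yardstick in 1 of 22 groups, the PEC-like cells of Sham, at 6.55 CPM from 50 UMIs, 39.4% of the podocyte-like level and 10.1 times the yardstick. That podocyte-like level was 16.6 CPM in Sham and 59.8 and 62.2 CPM in IRI24h-TDN and IRI24h-TD. In PEC-like cells of these injured libraries, which were not called, Kirrel2 was 3.40 CPM (12 UMIs) and 8.49 CPM (35 UMIs). Most of these UMIs came from 1 of the PEC-like clusters, with 246, 57 and 108 cells from the 3 libraries, led by Clstn2, Vit and Spock1, where Kirrel2 was 24.1 CPM (16.9 to 33.3), 25.5 CPM (12.2 to 46.8) and 30.5 CPM (19.5 to 45.3). The intervals of the 3 libraries overlapped there, but on few UMIs, with 36 in Sham against 607 in podocyte-like cells of Sham. Such wide intervals do not show that the levels were alike, nor a contrast with podocyte-like cells. In the other large PEC-like clusters Kirrel2 was between 0 and 4.33 CPM. Nphs1 stood in the first cluster at 12.9, 19.5 and 29.1% of its podocyte-like level, where Kirrel2 stood at 145, 42.5 and 49.0%.

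Genes whose levels followed Nphs1 most closely were sought over the 25 groups of class and library with at least 50 cells, 3 of them podocyte-like, among 8203 genes. On the scale of log2(CPM + 1) Ddn (0.99), Shisa3 (0.99), Wipf3 (0.98) and Lmx1b (0.98) had the highest Pearson correlations. Those with the mean of the 9 members were Plce1 (0.98), Tspan2 (0.97), C1qtnf1 (0.97), Golim4 (0.97) and Daam2 (0.97). Among the members themselves Synpo and Magi2 (0.98 each), Ptpro and Podxl (0.96 each) resembled Nphs1 over these groups, Kirrel2 (0.63), Actn4 (0.57) and Cd2ap (0.42) did so less, and Trpc6 (0.16) hardly. These are descriptions: groups of a library share its podocyte RNA, and podocyte-like groups lie far from the rest.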

How the data were processed

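Single cells of kidney cortex were captured on BD Rhapsody in 3 libraries, 1 per condition. The authors deposited 1 table of counts per library, whole UMIs per gene and cell, not normalized. Per the submitters' processing notes, CASAVA 1.8, UMI-tools and Seurat were used with the mm10 build, and the aligner, the annotation and the thresholds of the stated filter on cells are not given in the sources used here. The tables hold 10062, 10062 and 9884 barcodes with 69980443, 92355554 and 93470709 UMIs.

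Barcodes with at least 200 genes and at most 50% mt- UMIs were kept. Counts were log-normalized, and 2000 variable genes without the members and the other listed genes gave 30 principal components, corrected between libraries by Harmony (theta 2) and clustered by the Leiden method (15 neighbours, resolution 1) with Python 3.11.15, numpy 2.4.6, scipy 1.17.1, pandas 2.3.3, scikit-learn 1.9.0, igraph 0.11.9 and leidenalg 0.10.2. Clusters of at least 20 cells were named from 16 lists of markers by the mean level of each list, scaled from 0 to 1 over clusters, with at least 3 markers detected. A cluster stayed unnamed where a second list reached 80% of the first, where it was shallow or where its leading genes were those of another class. This scoring replaced a mean z score after the first clusters had been seen, when the graph was also left unpruned, the mesangial and smooth muscle lists were joined as mural and the injured tubule list was used as a state. Unnamed cells were 4.27, 3.28 and 8.54% of the 3 libraries. Differences from the study's own groups can come from these rebuilt names. The study states that multiplets were excluded after cell selection, and doublets were not removed again here.

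UMIs were summed per class and library and scaled to CPM, with exact Poisson and Clopper-Pearson intervals at 95%, and a class was used in a library with at least 50 cells. With 1 library per condition no test was run. A gene counted as changed at 1.5-fold with at least 50 UMIs over both groups, and as above the yardstick of carried-over podocyte RNA where its lower bound reached 3 times it. Thinning drew 2400 UMIs per cell. The steps were tested on simulated data, with 200 genes changed in a simulated comparison of podocyte-like IRI24h-TDN with Sham over 12045 genes. The planted changes were 2-fold or larger, past the 1.5-fold limit, and lay in well-counted genes, so their size set the recovery. Of these genes 100% were recovered, and 0.954% of the unchanged ones passed the limit. Only counting error was simulated, so these shares do not describe how well differences between the real libraries are called. Gene positions came from GENCODE M21 (mm10) and promoter windows from RefSeq (GRCm38.p6). Alternatives numbered 16 planned and 2 chosen after seeing the data, among them TMM scaling with edgeR 4.0.16. The text names every member, at most 10 other listed genes per comparison by size of change, and the 5 genes most like Nphs1 and most like the member mean. A listed gene that these rules name is not reported here, although it entered the counts, the medians and the yardstick. The members and lists were chosen with earlier results of these data known.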

Additional observations from a re-analysis of the deposited data

Results flagged for a closer look

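Barcodes with fewer than 200 genes, which entered no comparison, held UMIs of the members: 914, 227 and 151 in Sham, IRI24h-TDN and IRI24h-TD, from 1547, 444 and 118 barcodes. Mitochondrial genes took 95.4, 95.8 and 91.1% of all UMIs of these barcodes. Set against all UMIs, the members stood at 1.48, 0.937 and 5.24% of their podocyte-like level in Sham, IRI24h-TDN and IRI24h-TD. Without the mitochondrial UMIs they stood at 30.5, 21.4 and 56.8%.

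Kirrel2 had a log2 fold change of -0.95 (-1.99 to -0.02) between IRI24h-TDN and Sham in PEC-like cells, from 12 and 50 UMIs, and of 1.85 in podocyte-like cells. The directions were opposite, and the difference between the classes was not tested. Within the PEC-like cluster that held most of these UMIs the levels were 24.1 CPM in Sham and 25.5 CPM in IRI24h-TDN, and that cluster gave 29.3% of the PEC-like cells of Sham and 20.2% of those of IRI24h-TDN.

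Nphs1 had a log2 fold change of 0.83 (0.66 to 0.99) between IRI24h-TD and Sham in PTEC-like cells and of -0.66 in podocyte-like cells, again opposite in direction and not tested as a difference. The PTEC-like level of Nphs1 lay near the yardstick of carried-over podocyte RNA in both libraries, with 72.6% (Sham) and 47.9% (IRI24h-TD) of its UMIs in the 5% of cells that held the most, and the yardstick was 5.48% in Sham and 15.7% in IRI24h-TD.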

How the results depend on the processing

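Of 432 values of single members under the 16 other settings, 368 stayed within the counting interval of the reported value, 64 moved beyond it and 0 reversed a called direction. The count of members past the limit in IRI24h-TDN against Sham, 4, was 2 with cells thinned to 2400 UMIs, where Synpo was at -0.58 and Trpc6 had fewer than 50 UMIs, and 1 with a limit of 2-fold. In IRI24h-TD against Sham the count of 3 was 1 with a limit of 2-fold, and between the injured libraries it was 0 under every setting run. The sign of Podxl in IRI24h-TD against Sham changed under 1 setting (-0.01 to 0.05 over all). Without the minimum of 50 UMIs, the share of all genes past the limit was 39.7% in IRI24h-TDN against Sham and 27.7% between the injured libraries, where it was 23.8 and 3.21% with it, and 42.6% in IRI24h-TD against Sham. The 29 pairs above the yardstick became 20 to 37 over 10 other settings. Podocyte-like cells, 65.8% of those kept, were 73.7% with at most 20% mitochondrial UMIs, 66.8% with at least 500 genes, 67.7% without correction between libraries, 68.8 and 68.7% at resolution 0.5 and 2, and 68.5% with 4000 variable genes. No paired analysis was possible because each condition is 1 library. With 1 library per condition, the spread between animals is unknown, and Trpc6 rests on 56 to 84 UMIs per library in podocyte-like cells.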
